A study of Homo sapiens with 2 samples.

Results

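PLUNC, now called BPIFA1, and the genes that share its protein fold were examined on the arrays of SAS and eSAS cells. The family comprised PLUNC, C20orf114, C20orf70, BPIL1, BPIL2, BPIL3, BPI, LBP, PLTP and CETP, and its members were taken by these gene names among the probes for transcripts. Of the 10 names, 9 were on the array, with 10 of the 41000 probes, since BPI had a pair of probes to the same transcript. C20orf70 (BPIFA2, a protein of saliva) had no probe under either name or under its RefSeq transcript. SAS is a cell line from a squamous carcinoma of the human tongue. The eSAS cells are the population left after 5 selections of SAS cells for large spheroids with a removable filter, so they are a selected derivative of the same line and not a tumour or a normal epithelium. Neither population received a drug or a genetic change, and RNA was taken in the log phase of growth. There was 1 array of each population, both on the same slide, so differences between the cells could not be tested and no p-value is given.

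Proteins of this family carry the fold of bactericidal/permeability-increasing protein, a boomerang-shaped structure with lipid-binding pockets. The PLUNC branch lies in a cluster on chromosome 20 and is secreted by the epithelia of the nose, palate, airways and salivary glands, where PLUNC lowers surface tension, restrains bacteria and limits sodium uptake through the epithelial sodium channel. The older branches act in the blood and in granulocytes: BPI and LBP bind bacterial lipopolysaccharide, and PLTP and CETP move lipids between lipoproteins. In the oral cavity the secreted members are known mainly as products of glands and not of the squamous lining from which SAS cells derive.

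On each array, 41000 probes filled 43376 spots, of which 69.4% (SAS) and 67.5% (eSAS) were well above background by the criterion of the scanner software. Signals are in arbitrary fluorescence units after the background subtraction of the software, and levels are given as log2 of this signal relative to the 75th percentile of the array, 1242 for SAS and 1196 for eSAS. The dimmest probe called well above background had a signal of 12.8 for SAS and 15.2 for eSAS. Where a probe was well above background on 1 array only, the difference was computed against the higher of this limit and its own signal on the other array. Against the limit it is a lower bound only where the dim signal stays under the limit within its error. Against the probe's own signal it is a plain ratio. Neither holds the error of the measured signal. The limit is not a cut-off, since some brighter probes were not called, such as 1 of AHSG with 15.9 in SAS cells. Most non-uniform spots of the SAS array, 183 of 194, lay in rows 450 to 510, which held 11.5% of the probe spots. Of the 10 family probes 3, those of PLUNC, BPIL3 and 1 of BPI, lay in these rows. The eSAS array had 9 non-uniform spots, 6 of them in these rows, and the PLUNC spot was among the 6. All 11 squamous epithelial markers on the array, such as KRT5, TP73L (TP63) and DSG3, were well above background in both populations.

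Only 3 of the 10 family probes, those of PLUNC, BPIL1 and PLTP, met the criterion of the software in at least 1 population, against 69.8% of all probes. PLTP was measured in both populations and was slightly lower in eSAS cells. PLUNC and BPIL1 were measured in eSAS cells alone, and both were at least 2-fold higher there than the limit of the SAS array. The other 7 probes, for 6 genes, were not well above background in either population. Of all probes well above background on at least 1 array, 2.08% were higher in eSAS cells by at least 2-fold and 1.96% were lower by as much. Of the 3 such family probes, 2 were higher by this criterion and 0 were lower. Both passed the filter through the eSAS array alone, as did 511 probes in all, of which 53.6% were at least 2-fold higher, so the count of 2 is no result about the family. It was 1 with marked spots left out or with no background correction, and 0 where both arrays had to be well above background. In RNA of whole cultures, fewer cells that express a gene and less RNA per cell cannot be told apart.

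**Figure D1:**
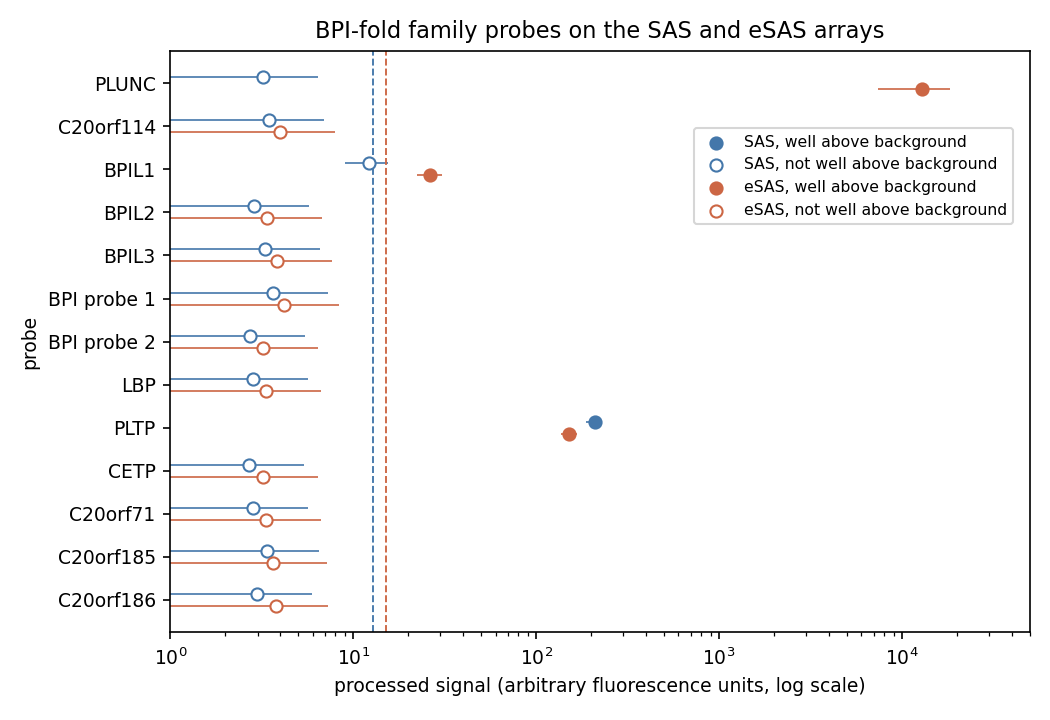
Processed signal (arbitrary units, log axis) of each family probe and of 3 further BPI-fold genes on the SAS (blue) and eSAS (orange) arrays, 1 spot each; bars are the error given by the scanner software, filled points are well above background, and dashed lines mark the dimmest probe called so on each array. PLTP lies above both lines, BPIL1 and PLUNC cross them in eSAS cells alone, and the others lie between 2.70 and 4.21.

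PLUNC, the secreted protein of the upper airways, had a single probe on chromosome 20 of hg18 at 31292885 to 31293530, on the plus strand, a span of 646 bases on the genome. Its signal was 3.21 ± 3.20 (error of the software, 1 spot) in SAS cells and 12828 ± 5427 in eSAS cells. The SAS value is not well above background. Against the limit of the SAS array the eSAS signal was 1038-fold higher, or 10.02 on the log2 scale. This is a bound for the SAS value alone and does not hold the error of the eSAS signal. On the eSAS array the median pixel of the spot was 152 and the mean pixel 12438. Of the 13 spots per array for the family and 3 related genes described further on, that of PLUNC on the eSAS array was the only one marked as non-uniform. The SD of its pixels was 3.01 times their mean, whereas this ratio lay between 0.19 and 0.33 in the 12 other eSAS spots and between 0.16 and 0.49 in the 13 SAS spots. Its local background was also marked as an outlier on the eSAS array, with a mean of 33.4 against 23.9 to 30.8 at the other 12 spots. With marked spots left out, PLUNC had no value in eSAS cells. With the median pixel of each spot and no background correction, the log2 ratio was 1.72. The median pixels were 48 in SAS and 152 in eSAS cells, so this is a plain ratio and no bound.

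**Figure D2:**
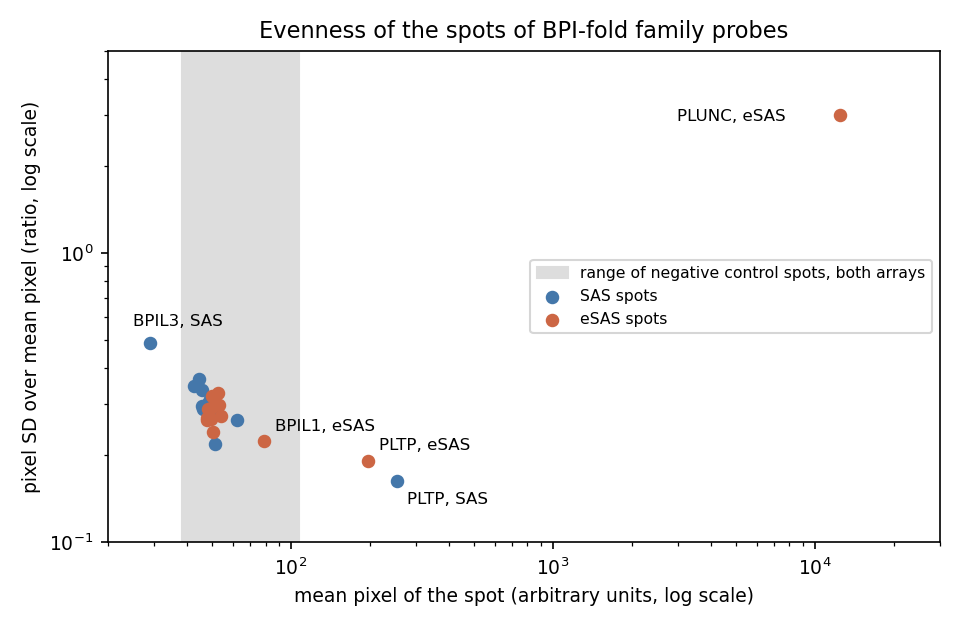
Pixel SD divided by mean pixel against mean pixel (both log axes) for the 13 spots of the family and related genes on the SAS (blue) and eSAS (orange) arrays; the grey band is the range of the 153 negative control spots. The PLUNC spot on the eSAS array stands apart at 3.01, while the other eSAS spots lie between 0.19 and 0.33.

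Among the 8 spots nearest to PLUNC, at most 127 micrometres away, 1 was marked as non-uniform on the eSAS array (HHAT, an acyltransferase, log2 ratio 8.14), and the local background of HHAT and GPR17 was marked as non-uniform. The mean local background of these 8 spots reached 108796 in the eSAS scan but 32.3 in the SAS scan. The 3 other adjacent spots that were well above background on both arrays had log2 ratios of -0.74 (AL831999), -0.04 (AK055214) and 0.16 (GATAD1). No spot next to any other family probe was marked on the eSAS array, and the local background there did not exceed 32.8. The part of the marked surroundings in the PLUNC value was not tested.

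BPIL1 (BPIFB2), a secreted relative whose gene lies 220 kb from PLUNC, was the dimmest of the 3 measured members. Its probe, at 31072029 to 31072781 of chromosome 20, gave a signal of 12.2 ± 3.21 in SAS cells, just under the limit there, and of 26.4 ± 4.24 in eSAS cells. Against the limit of the SAS array the eSAS signal was 2.14-fold higher (log2 ratio 1.10), and the errors of the 2 spots do not overlap. The error of the SAS signal reaches past that limit, so 2.14-fold is no lower bound. Its pixels were even, with an SD of 0.26 (SAS) and 0.22 (eSAS) times the mean, and neither spot was marked. The 6 adjacent spots that were well above background on both arrays had a median log2 ratio of 0.05. Other probes as dim as this varied widely, however. Among 14 probes that were spotted 10 times and had mean signals of 10 to 40 on both arrays, the SD of the log2 ratio between spots was 0.46 in the median and ranged from 0.19 to 0.91. On the eSAS array 3 of the 153 negative control spots had a brighter mean pixel than BPIL1, and on the SAS array 2 did. With no background correction the log2 ratio was 0.40, under 2-fold.

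PLTP, which transfers phospholipids into high-density lipoprotein, was the member that both arrays measured. Its probe lies on the minus strand of chromosome 20 at 43961049 to 43961108, far from the PLUNC cluster. The signal was 209 ± 21.2 in SAS cells and 152 ± 15.6 in eSAS cells, 1.33-fold higher in SAS cells (log2 ratio -0.41). The errors of the spots do not overlap. Of the 26841 probes that both arrays measured, 8.80% had a lower log2 ratio, and in level PLTP stood above 32.8% of them in SAS cells and 28.4% in eSAS cells. Among 29 probes spotted 10 times with mean signals of 100 to 400, the SD of the log2 ratio between spots had a median of 0.08 and a maximum of 1.78, and pooled it was 0.34. Over all probes measured on both arrays the SD of the log2 ratio was 0.38. The PLTP difference was larger than the median spread between spots but close to the pooled one, and neither holds the spread between cultures. It was below 0 under all 10 alternative settings that were run, from -0.46 to -0.17.

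The remaining members were not well above background in either population. C20orf114 (BPIFB1), the long PLUNC protein of goblet cells and submucosal glands, had signals of 3.46 in SAS and 3.99 in eSAS cells. BPIL3 (BPIFB6), a relative retained in the secretory pathway, had 3.30 and 3.83. BPIL2 (BPIFC), described in skin and encoded on chromosome 22, had 2.88 and 3.38. These values lie under the limits of both arrays, so they give no order between the populations.

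The pair of probes for BPI, the lipopolysaccharide-binding protein of neutrophil granules, had signals of 3.66 and 2.72 in SAS cells and 4.21 and 3.21 in eSAS cells. LBP, the acute-phase protein that hepatocytes release and that hands lipopolysaccharide to CD14, had 2.84 and 3.35. CETP, which exchanges cholesteryl esters and triglycerides between lipoproteins and is encoded on chromosome 16, had 2.70 and 3.20. At these 7 probes the processed signal differed from its own error by at most 0.448% on either array, so no fold is given.

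Mean pixels before background correction are given for these dim members as a description. Together with 3 further genes of the fold on the array, C20orf71 (BPIFA3), C20orf185 (BPIFB3) and C20orf186 (BPIFB4), all of the same cluster and none well above background, they make 10 probes of 9 genes. These probes were taken because they were not well above background, so mean pixels near those of negative controls are no separate evidence. All 10 lay within the range of the 153 negative control spots on the eSAS array, which was 40.1 to 96.5. That range is wide, and BPIL1, well above background on the eSAS array, also lay in it with a mean pixel of 79.0. On the SAS array 9 of 10 lay within the range of 38.3 to 107.7. The exception was BPIL3, with a mean pixel of 28.9 against 50.5 on the eSAS array. Its SAS spot lies in row 475, among the rows with most marked spots. Of the spots next to it, 1 was marked as non-uniform on the SAS array, and the 4 that were measured on both arrays had a median log2 ratio of 1.23, higher on the eSAS array. The part of these surroundings in the BPIL3 value was not tested. The medians around the other family probes lay between -0.16 and 0.25.

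The genes beside PLUNC on the long arm of chromosome 20 were then read as a second source on its locus. Within 1 Mb on either side, the array had 53 other probes with 40 gene names. PLUNC lay in a stretch of 520 kb in which no probe was well above background on both arrays, between the transcript THC2682560, 383 kb to one side, and CDK5RAP1, 137 kb to the other. Of the 11 other probes in this stretch, 6 were for BPI-fold genes. In it, 1 probe was well above background in SAS cells (THC2655417, signal 16.0) and 1 in eSAS cells (BPIL1, 26.4). The 3 probes within 100 kb of PLUNC, those of ENST00000375465, C20orf71 and C20orf114, were not well above background in either population. Outside the stretch, 39 of 42 probes were well above background on both arrays.

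Most of the measured neighbours were within 2-fold between the populations. Over the 39 probes the median log2 ratio was -0.14, against -0.00 over all 26841 probes measured on both arrays. Of the 39, 30 lay below 0 (76.9%), as did 50.5% of all probes, and the range was -1.48 to 0.26. On the side of THC2682560, which had a log2 ratio of 0.09, the next measured genes were BM476468, with 0.22, and MAPRE1, a protein of growing microtubule ends, with -0.13 and 0.14 on its pair of probes. On the other side CDK5RAP1, a modifier of transfer RNA, had -0.11. CBFA2T2, a transcriptional corepressor, had -0.25 and -0.47. No neighbour approached the PLUNC ratio.

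At least 2-fold differences were seen at 4 of the 43 neighbour probes that met the criterion on at least 1 array (9.30%), against 2.08% higher and 1.96% lower of all such probes. BPIL1 and FLJ33706 were higher in eSAS cells, and both met the criterion on the eSAS array alone. The signal of FLJ33706, a transcript 608 kb from PLUNC, was 6.21 ± 3.07 in SAS cells and 30.1 ± 4.62 in eSAS cells, a difference of at least 2.43-fold. AF116649 had signals of 82.8 in SAS and 28.5 in eSAS cells and ENST00000375672 had 182.0 and 76.4, with log2 ratios of -1.48 and -1.20. None of the 53 neighbour probes had a spot marked as non-uniform on either array.

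**Figure D3:**
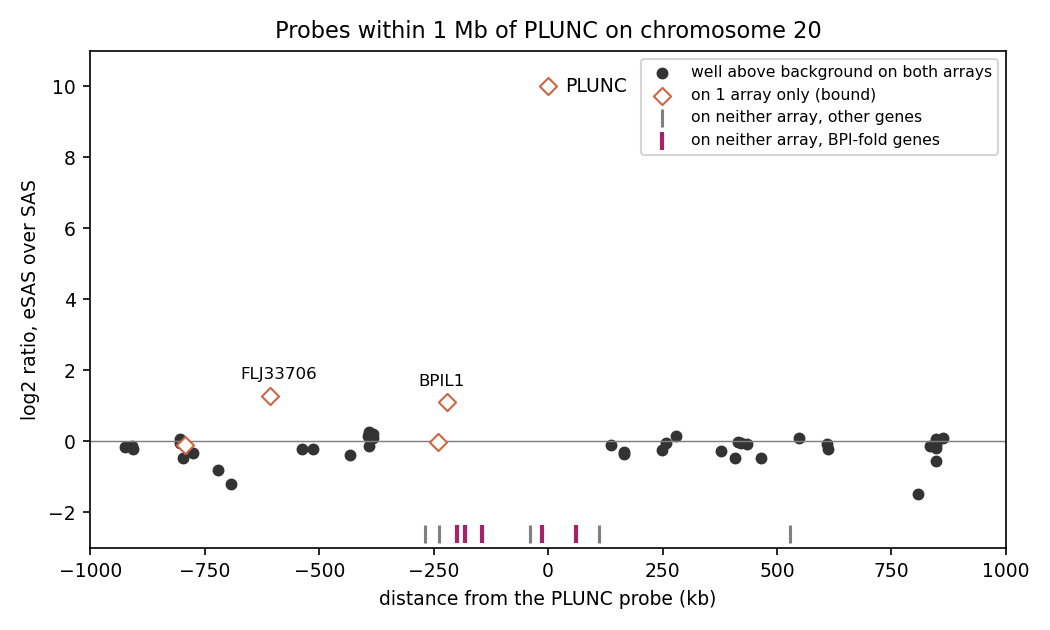
Log2 ratio of eSAS to SAS cells against distance from the PLUNC probe (kb) for the 53 other probes within 1 Mb and for PLUNC itself. Black points were well above background on both arrays and lie between -1.48 and 0.26. Open diamonds were so on 1 array only, where the ratio was taken against the limit of the dim array (10.02 at PLUNC, whose eSAS spot is marked). Ticks at the bottom mark probes measured on neither array, among which the BPI-fold genes are drawn in purple.

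Upstream sequences are shown with their CpG content for the 2 members measured in eSAS cells alone, for C20orf114 as the nearest member on the other side of PLUNC, and for PLTP. They are the 250 bases before the annotated RefSeq start in GRCh38.p14 and are written 5′ to 3′ with CpG dinucleotides in capitals. BPIFA1 (PLUNC) is chr20:33235746-33235995 and BPIFB1 (C20orf114) is chr20:33282964-33283213, both on the plus strand. BPIFB2 (BPIL1) is chr20:33007454-33007703 on the plus strand, and the outer of the annotated PLTP starts is chr20:45912156-45912405 on the minus strand.
BPIFA1: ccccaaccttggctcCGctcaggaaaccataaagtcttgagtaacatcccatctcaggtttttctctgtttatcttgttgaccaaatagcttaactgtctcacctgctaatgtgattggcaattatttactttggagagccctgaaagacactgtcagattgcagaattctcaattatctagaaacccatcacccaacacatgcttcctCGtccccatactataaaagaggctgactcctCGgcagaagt
BPIFB1: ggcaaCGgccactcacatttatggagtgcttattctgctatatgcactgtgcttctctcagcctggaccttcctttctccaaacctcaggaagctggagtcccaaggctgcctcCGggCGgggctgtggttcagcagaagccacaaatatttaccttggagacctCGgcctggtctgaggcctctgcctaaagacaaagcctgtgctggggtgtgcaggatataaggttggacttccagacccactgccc
BPIFB2: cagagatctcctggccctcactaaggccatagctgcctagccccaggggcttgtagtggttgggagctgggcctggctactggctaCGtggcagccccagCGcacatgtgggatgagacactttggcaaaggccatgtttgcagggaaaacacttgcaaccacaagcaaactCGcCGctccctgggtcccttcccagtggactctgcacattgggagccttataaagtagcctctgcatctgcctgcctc
PLTP: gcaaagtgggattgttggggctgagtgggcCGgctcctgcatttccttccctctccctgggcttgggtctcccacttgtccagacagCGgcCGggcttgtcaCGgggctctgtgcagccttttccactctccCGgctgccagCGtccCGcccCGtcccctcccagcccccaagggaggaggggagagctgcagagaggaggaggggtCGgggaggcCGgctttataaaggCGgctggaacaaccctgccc

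These stretches hold 3 (BPIFA1), 4 (BPIFB1), 4 (BPIFB2) and 11 (PLTP) CpG dinucleotides. Relative to the number that their C and G content alone would give, the ratio was 0.27, 0.21, 0.19 and 0.39, against a median of 0.56 over 35116 promoters. Of the 10 family members 7 were in the promoter table, with 9 starts. Over the 8 BPI-fold genes of the cluster, with 11 starts, the ratio had a median of 0.18 and did not exceed 0.47. The inner of the annotated PLTP starts, not shown, had 17 CpG dinucleotides and a ratio of 0.75. For 13 neighbour genes that were measured on both arrays and had a promoter in the table, with 16 starts, the median was 0.80 and the range 0.13 to 1.17, the lowest being DNMT3B and the highest E2F1, so the ranges overlap. The letters TATAAA on either strand were found in the sequences of BPIFA1, BPIFB2 and PLTP shown here and in 1 of the pair of BPIFA2 starts. They were also found in 2 of the 16 neighbour starts, 1 each of MAPRE1 and CDK5RAP1, and in 3763 of the 35116 promoters. These counts describe the sequence and give nothing on which factor binds there.

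The genes around the known functions of the family were read next, in lists chosen by role. Of all genes well above background on at least 1 array, 2.19% were higher in eSAS cells by at least 2-fold and 2.13% were lower by as much, and over all genes measured on both arrays the median log2 ratio was 0.00. PLUNC acts on the epithelial sodium channel. Of 7 genes of the channel and its regulators, 5 were measured on both arrays, with a median log2 ratio of 0.06, and 0 were at least 2-fold higher and 1 lower. The exception was SCNN1D, the delta subunit, with signals of 46.8 in SAS and 21.6 in eSAS cells (log2 ratio -1.06, but -0.37 with no background correction). SCNN1A, the alpha subunit, had 461 and 389. SCNN1G, the gamma subunit, was not well above background in either population. SCNN1B, the beta subunit, was just above it in SAS cells alone on 1 probe, with 21.3 and 20.2. Its other probe, with 3.88 and 4.42, was not well above background in either population. NEDD4L, the ubiquitin ligase that removes the channel from the membrane, had log2 ratios of 0.46, 0.44 and 0.34 on its 3 probes. The proteases PRSS8 and ST14, which activate the channel, had 0.12 and 0.06.

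All 10 genes of lipopolysaccharide sensing, the pathway of BPI and LBP, were measured in both populations, with a median log2 ratio of 0.13. LY96 (MD-2), which holds lipopolysaccharide at the receptor, was the gene at least 2-fold higher in eSAS cells, with signals of 182 and 456 (2.60-fold), and 0 genes were 2-fold lower. With normexp and quantile normalization its log2 ratio was 0.70, under 2-fold. TLR4, the receptor itself, had a mean log2 ratio of 0.64, and its 3 probes had 0.50, 0.53 and 0.88. The first of these was spotted 10 times, and its spots varied from -0.40 to 1.03 (SD 0.40). CD14, which takes lipopolysaccharide from LBP, had signals of 215 and 233. IRAK1, a kinase downstream, had 4957 in SAS and 3169 in eSAS cells (log2 ratio -0.59).

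Of 12 genes of high-density lipoprotein and reverse cholesterol transport, the process in which PLTP and CETP act, 7 were measured on both arrays and 1 on the SAS array alone. None was 2-fold higher in eSAS cells, and 3 were at least 2-fold lower, those of APOE and of the exporters ABCA1 and ABCG1. APOE, the apolipoprotein of remnant particles, was spotted 10 times, and its mean signal was 173 ± 14.3 (SD over 10 spots) in SAS cells and 41.3 ± 12.2 in eSAS cells. Its log2 ratio of -2.05 ranged from -2.31 to -1.44 over the spots. The dimmest SAS spot had 160 and the brightest eSAS spot 74.8, so the spots of the arrays do not overlap. ABCA1, which loads cholesterol onto apolipoproteins, had signals of 405 and 120 (log2 ratio -1.70) on the probe measured on both arrays. A second ABCA1 probe had 53.0 in SAS cells and 16.2 ± 3.72 in eSAS cells, where it was not well above background. By its own signal it was 3.16-fold lower there, which is a plain ratio and no bound. The remaining ABCA1 probe, with 5.94 and 3.36, was not well above background in either population. ABCG1, which exports cholesterol to mature particles, had 52.2 in SAS cells and 13.5 ± 3.79 in eSAS cells. The SAS signal was 3.31-fold higher than the limit of the eSAS array, but the error of the eSAS signal reaches past that limit. With no background correction the log2 ratio of ABCG1 was -0.59, under 2-fold, whereas APOE had -1.25 and ABCA1 -1.35. With normexp and quantile normalization APOE had -0.62 and ABCA1 -0.75, so these also came within 2-fold.

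The other measured genes of this list stood apart from these 3, so that the list median was 0.14 although its lowest value was -2.05. NR1H2 and NR1H3, the liver X receptors that are known to drive transcription of ABCA1, ABCG1, APOE and PLTP, had log2 ratios of 0.31 and 0.17. SCARB1, the receptor for high-density lipoprotein, had 0.16, APOC1 had 0.14 and LCAT, which esterifies cholesterol on the particle, had -0.24. APOA1, the main protein of high-density lipoprotein, was not well above background in either population, nor were APOA2, LIPC and LIPG. PLTP, with -0.41, lay below 0 and within 2-fold, as LCAT did, and 49.8% of all genes measured on both arrays lay below 0. A link between PLTP and the 3 lower genes was not tested.

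Markers of cells that make family members were read beside them. Of 18 airway and salivary secretory markers, 8 were measured on both arrays, 1 on the eSAS array alone and 9 on neither, and 0 differed by at least 2-fold. Of all 30484 genes, 19556 were measured on both arrays and 1399 on 1 array alone. The median log2 ratio was 0.14, and the summed signal of the list was 1438 in SAS and 1798 in eSAS cells. The brightest were AGR2, a chaperone of mucins, with 609 and 846, and SCGB3A2, a secretoglobin of airways, with 339 and 492. PRR4, a proline-rich protein of glands, differed most among those measured on both arrays and was lower in eSAS cells, with 106 and 61.9 (log2 ratio -0.72), and 6 of the 8 were above 0. HTN1, a histatin of saliva, was the marker measured in eSAS cells alone, with signals of 4.30 and 18.8, at least 1.52-fold. LYZ, MUC7, PIGR, STATH, PIP and HTN3, products of glands, were not well above background in either population. The part of such cells in the PLUNC and BPIL1 values was not tested.

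Of 9 neutrophil markers, 7 were not well above background in either population, among them MPO, ELA2 (ELANE) and AZU1, and neither was BPI. MPO came near the limit in SAS cells, with a signal of 12.6 ± 3.77. The summed signal of the list was 455 in SAS and 2190 in eSAS cells. That difference lay in LCN2, an iron-sequestering protein that epithelia also make, with 344 in SAS and 2098 in eSAS cells (6.33-fold), and PRTN3 had 70.7 and 63.0. Of 8 hepatocyte markers, 6 were not well above background in either population, including ALB and TTR, and neither was LBP. AHSG, among the 6, had 15.9 ± 3.56 in SAS cells on its brighter probe. SERPINA1, an antiprotease that epithelia also make, had 4935 and 5237, and HP had 21.3 and 22.8. The 11 squamous markers all had log2 ratios below 0, as did 49.8% of all genes measured on both arrays, and their median was -0.48. Of them 1 was at least 2-fold lower, KRT14, a keratin of basal cells, whose probes disagreed in size with log2 ratios of -6.58 and -1.23.

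**Figure D4:**
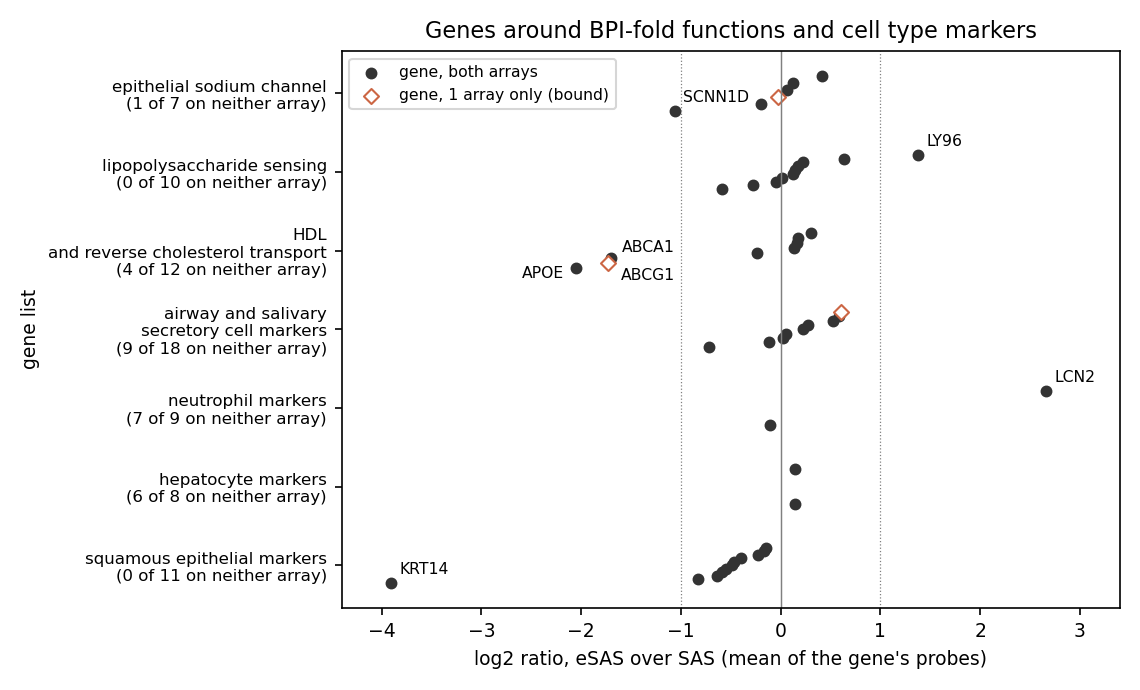
Log2 ratio of eSAS to SAS cells (x axis, mean of the probes of a gene) for the genes of 7 lists; black points are genes measured on both arrays, open diamonds genes on 1 array only, dotted lines mark 2-fold, and the labels give how many genes of each list were measured on neither array. APOE, ABCA1 and ABCG1 lie between -2.05 and -1.70, LY96 at 1.38 and LCN2 at 2.66, while most other genes lie within 2-fold.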

How the data were processed

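SAS and eSAS RNA was hybridised to 1-colour arrays, 1 per population. The authors deposited the scanner files of Agilent Feature Extraction 10.7.3.1 (named in the submitters' processing notes), with linear intensity values that had been corrected for background and spatial trends, set to a small value where not above background, and not scaled between arrays. Pixel intensities, errors and spot marks were used as deposited, and the deposited p-value of each spot against background was not used. The series value table was equal to the processed signal at 100% of spots (relative tolerance 1e-06).

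The log2 signal, relative to each array's 75th percentile, was averaged over the spots of a probe, with marked spots kept. A probe was well above background if more than 50% of its spots were. A gene's ratio is the mean over probes measured on both arrays, otherwise the bound. Every family probe was named, with genes at least 2-fold apart among the neighbours and lists, the nearest measured neighbours, and the 2 brightest genes of a list without any; other genes are named as examples chosen after their values were seen. A result for a single gene that meets this rule is not reported here, although counts include it. Members and lists were chosen with earlier results of these data known. Positions of probes follow the array's own annotation in hg18, and promoters those of RefSeq in GRCh38.p14; coordinates were not converted between them. The number of arrays limits the precision. Counting was tested on simulated data. Python 3.11.15, R 4.3.3 and limma 3.58.1 (normexp with an offset of 50, quantile normalization) were used.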

Additional observations from a re-analysis of the deposited data

How the results depend on the processing

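No paired analysis was possible because each population had a single array; for the same reason no array could be left out, and the slide could not be a block. Log2 ratios were called unchanged when they moved by less than 0.19, the pooled SD of replicate spots. Counts were judged by their ratio to each other. The number of family probes well above background, 3, was thus called unchanged although it was 2 with marked spots left out. The PLUNC log2 ratio was 5.58 with normexp and quantile normalization, 7.72 with no background correction and 1.72 with the median pixel. It was 7.40 when spots whose local background was marked as non-uniform were left out of the normexp fit. The PLUNC spot, whose background was marked as an outlier but not as non-uniform, stayed in that fit. The ratio was 12.02 both with no lower limit and with the weaker criterion of a positive and significant signal. With marked spots left out PLUNC had no value. The PLTP log2 ratio was -0.17 with normexp and quantile normalization. The number of family probes at least 2-fold apart, 2, was 1 with either normexp setting, with no background correction, with the median pixel and with marked spots left out, and 0 where both arrays had to be well above background. It was BPIL1 that came under 2-fold without the background correction and under normexp, with log2 ratios of 0.40 and 0.13. The squamous marker median was -0.25 with normexp and quantile normalization. APOE, ABCA1, ABCG1 and SCNN1D remained below 0 and LY96 and LCN2 above 0 under all 11 alternatives run for them, but LY96 came to 0.70, APOE to -0.62, ABCA1 to -0.75, ABCG1 to -0.32 and SCNN1D to -0.22 with normexp and quantile normalization. The neighbour median stayed below 0 in all 13 alternatives, from -0.19 to -0.09, including windows of 0.5 Mb, genes in place of probes, and rows 450 to 510 left out; this last setting, the reduced normexp fit and all settings for gene lists and single list genes were added after the data were seen. The causes of these shifts were not tested. Dim probes under the limits of 12.8 and 15.2 have no measured difference.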
